A study of Mus musculus with 12 samples.

Results

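The comparison described here sets cultures given GDNF and an antibody against NCAM1 beside cultures given that antibody without GDNF. It rests on 6 of the 12 RNA-seq libraries of the study, 3 from cultures given GDNF plus anti-NCAM1 and 3 from cultures given anti-NCAM1, chosen by the column names of the deposited count table and not by any measured value. All were EO771-tdT-LM2 cells, a derivative of the mouse mammary tumour line EO771 labelled wild type, placed for 30 minutes in glucose-poor medium (10 mg/dl glucose and 1% serum), seeded in plates of 12 wells and treated in that medium. The GDNF plus anti-NCAM1 cultures received 0.2 µg/mL GDNF and 2.5 µg/mL anti-NCAM1 for 24 hours. The anti-NCAM1 cultures received 0.1% BSA and 2.5 µg/mL anti-NCAM1 for the same time. The labels name no BSA in the cultures given GDNF, so GDNF and the lack of BSA go together. The other 6 libraries are from GDNF with 2.5 µg/mL IgG (3) and from control cultures with BSA and the IgG (3). They enter the fit, and they are the arm without anti-NCAM1 against which the effect of GDNF is set below. The labels speak of triplicates of 1 cell line and do not say that the cultures were separate experiments, so p-values measure the spread between these cultures.

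GDNF is a secreted ligand of the TGF-beta superfamily, known for keeping neurons alive and for guiding growth of the kidney bud. In its best known route it binds the co-receptor GFRA1, which brings it to the receptor tyrosine kinase RET, and RET passes the signal to the ERK and PI3K to AKT pathways. NCAM1, a cell adhesion molecule of the immunoglobulin superfamily, is an alternative receptor that binds GDNF together with GFRA1 and signals through the kinases FYN and FAK. Antibodies against NCAM1 are used to block that route.

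No gene passed the test of GDNF plus anti-NCAM1 against anti-NCAM1. Of 11332 genes tested with edgeR's quasi-likelihood F test on all 12 libraries, 0 (0%) passed an adjusted p of 0.05, and the smallest adjusted p was 0.999. At an unadjusted p under 0.05 there were 284 genes (2.51%), of which 143 (1.26%) were higher with GDNF and 141 (1.24%) lower. DESeq2 and limma-voom on the same genes also passed 0, with 173 and 256 at an unadjusted p under 0.05. The levels of the 3 GDNF plus anti-NCAM1 libraries all lay above the 3 anti-NCAM1 libraries for 625 genes (5.52%) and all below them for 653 (5.76%).

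The sizes of the differences were small as well. Log2 fold changes, always GDNF plus anti-NCAM1 over anti-NCAM1, had a median of -2.3e-05 over the 11332 genes, and their 5th and 95th percentiles were -0.26 and 0.29. The median absolute log2 fold change was 0.08, against 0.16 for GDNF over control in the arm with IgG. That arm includes GDNF replicate 3, in which mitochondrially encoded transcripts were 10.2% of the counts. They were 4.51 and 5.29% in GDNF replicates 1 and 2, and the part of this library in the 0.16 was not tested. The precision limits what could be seen. The median standard error of a log2 fold change was 0.13, and 0.11 for the 8732 genes at a mean of 10 or more CPM, counts scaled to library size. For 8695 genes (76.7%), and for 8298 of those 8732, the 95% interval of the log2 fold change lay within 1.5-fold in either direction. These intervals are for single genes and use the spread of all 12 libraries. Without GDNF replicate 3, which is not among the compared libraries, edgeR still passed 0 genes. In that fit 712 were at an unadjusted p under 0.05, and the smallest adjusted p was 0.182. The 6 compared libraries fitted alone in edgeR had 832 at an unadjusted p under 0.05, and 5 passed.

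**Figure D1:**
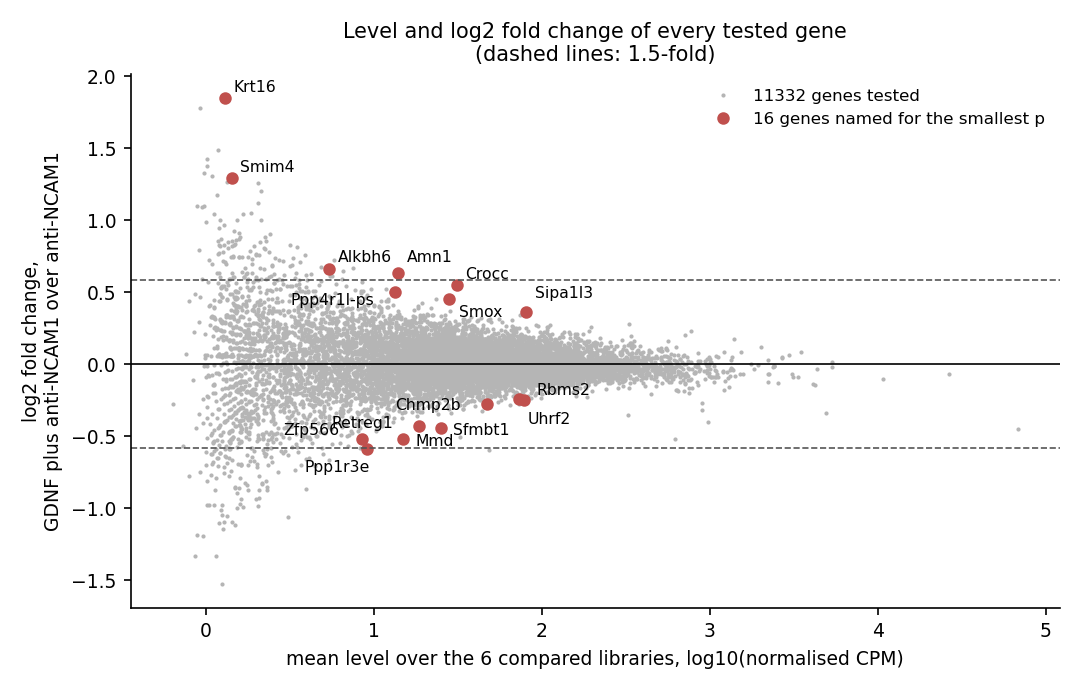
Each grey point is 1 of 11332 tested genes, with its mean level over the 6 compared libraries on a log10 axis (normalised CPM) against its log2 fold change, GDNF plus anti-NCAM1 over anti-NCAM1. Red points are the 16 genes with the smallest unadjusted p whose groups did not overlap, the dashed lines mark 1.5-fold, and no gene passed the test.

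The 6 libraries held 6525291, 5616398 and 6350296 counts with GDNF plus anti-NCAM1 and 6638089, 6771395 and 6451971 with anti-NCAM1. The 3 anti-NCAM1 libraries were not alike. Each library's deviation from the mean of the 12 was regressed on gene GC content. The slope (log2 per 10 GC points) was 0.07, 0.05 and 0.06 in the GDNF plus anti-NCAM1 libraries and -0.09, 0.10 and -0.08 in the anti-NCAM1 libraries. The feature with the most counts, ENSMUSG00000119584, to which no symbol matched, took 5.75, 6.38 and 5.41% of the counts with GDNF plus anti-NCAM1 and 9.28, 3.79 and 9.84% with anti-NCAM1. Rank correlations across the tested genes ran from 0.9950 to 0.9954 between anti-NCAM1 replicate 2 and the 3 GDNF plus anti-NCAM1 libraries, but from 0.9930 to 0.9931 between it and anti-NCAM1 replicates 1 and 3. Those 2 replicates correlated at 0.9952 with each other and at 0.9934 to 0.9938 with the GDNF plus anti-NCAM1 libraries. On these measures anti-NCAM1 replicate 2 lay with the cultures given GDNF as well, and replicates 1 and 3 lay apart. Mitochondrially encoded transcripts were 4.40, 4.37 and 4.52% of the counts with GDNF plus anti-NCAM1 and 4.66, 4.26 and 4.79% with anti-NCAM1. The part of these library differences in the results below was not tested.

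Leaving out anti-NCAM1 replicate 2 showed how much rests on it. With all 12 libraries but that one, the count of genes passing stayed 0, with 551 at an unadjusted p under 0.05. When only the compared libraries were fitted, 5 genes passed with all 6 libraries (0.0441%) and 706 passed without anti-NCAM1 replicate 2, 425 higher and 281 lower with GDNF. That fit compares 3 libraries with 2 that share the falling GC slope and the larger share of that feature, which had the smallest p in it (log2 fold change -0.79). Without any other of the 6 libraries the compared libraries alone passed 0 to 2 genes. DESeq2 on the 6 libraries passed 0, with 366 at an unadjusted p under 0.05.

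The cells transcribed little of the classical GDNF receptor. Gfra1, the GDNF co-receptor, had 2, 2 and 0 counts in the GDNF plus anti-NCAM1 libraries and 2, 0 and 2 in the anti-NCAM1 libraries. Ret, its kinase partner, had 1, 1 and 1 counts with GDNF plus anti-NCAM1 and 0, 2 and 1 with anti-NCAM1. Both were thus near the limit of detection, where 3 counts in a library correspond to 0.443 to 0.534 CPM, and neither could be tested. Over the 6 libraries Gfra1 stood at 0.209 CPM (95% Poisson interval 0.0901 to 0.411) and Ret at 0.156 CPM (0.0574 to 0.341), intervals that cover counting error only. Of the other co-receptors, each named with its ligand, Gfra4 (persephin) had 8 counts over the 6 libraries, Gfra2 (neurturin) had 1, and Gfra3 (artemin) and Gfral (GDF15) had 0, for which the upper end of the same interval is 0.0962 CPM. Sorl1 and Sort1, sorting receptors, had 18 and 7 counts, and Sdc3, a heparan sulphate proteoglycan that binds it, had 4.

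Ncam1, the target of the antibody, was transcribed in every library. Its level was 7.95, 9.62 and 8.34 normalised CPM with GDNF plus anti-NCAM1, and 7.75, 9.33 and 9.58 with anti-NCAM1. The groups overlapped, and the log2 fold change was -0.05 (SE 0.22, 95% interval -0.50 to 0.41). Its paralog Ncam2 had 0 counts in all 6 libraries. Gdnf itself was transcribed by these cancer cells, at 11.3, 13.3 and 13.0 normalised CPM with GDNF plus anti-NCAM1 and 9.92, 11.3 and 10.6 with anti-NCAM1. The highest anti-NCAM1 library reached the lowest of the GDNF plus anti-NCAM1 libraries, and the log2 fold change of 0.23 (SE 0.15, 95% interval -0.08 to 0.55) did not pass (edgeR adjusted p = 0.999).

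The other 7 tested members of the list of 23 GDNF family ligands, receptors and binding partners were as close. Artn, the ligand artemin, and Gdf15, a stress-induced ligand of the same family, had log2 fold changes of -0.03 (SE 0.27) and 0.22 (SE 0.29). Sdc1 and Sdc4, syndecans of the cell surface, stood at 0.08 and -0.06, the integrin chains Itgb1 and Itgav at -0.06 each, and the receptor kinase Met at -0.02 (SE 0.09). Of the 9 members tested, 3 were higher and 6 lower with GDNF, with a median of -0.03. The groups did not overlap for 0 of the 9, beside 5.52% of all genes higher and 5.76% lower without overlap. So few members cannot be told apart from those shares. The 95% interval lay within 1.5-fold for 7 of the 9.

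Fyn, the kinase on the NCAM1 route, stood at 84.6, 72.4 and 87.8 normalised CPM with GDNF plus anti-NCAM1 and at 78.3, 78.3 and 86.1 with anti-NCAM1. The groups overlapped, and the 95% interval of its log2 fold change, -0.18 to 0.21, lies around 0.01. Ptk2, which encodes FAK, stood at 293, 299 and 314 with GDNF plus anti-NCAM1 and at 321, 306 and 327 with anti-NCAM1 (log2 fold change -0.07, SE 0.08). Src, a kinase of the same family as Fyn, had 108, 114 and 110 with GDNF plus anti-NCAM1 and 90.1, 117 and 91.4 with anti-NCAM1. For Src, anti-NCAM1 replicate 2 lay above the 3 GDNF plus anti-NCAM1 libraries, while replicates 1 and 3 lay below them.

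Among 39 tested signalling intermediates of NCAM1 and RET, 26 were higher and 13 lower with GDNF, with a median of 0.05, beside 5665 higher and 5667 lower over all genes. Their mean level, as log2(CPM + 2) relative to the anti-NCAM1 mean, was 0.04, 0.04 and 0.05 with GDNF plus anti-NCAM1 and -0.004, 0.02 and -0.01 with anti-NCAM1, so the groups did not overlap. The smallest p of the list was that of Akt2, a kinase downstream of PI3K, at 101, 102 and 109 normalised CPM with GDNF plus anti-NCAM1 and 82.6, 91.8 and 85.4 with anti-NCAM1. Its groups did not overlap, and its log2 fold change was 0.26 (SE 0.09, edgeR adjusted p = 0.999). In control cultures Akt2 averaged 101 and with GDNF alone 85.6, so that the level with both agents was close to that of the control. Rps6ka1, the ERK-activated kinase RSK1, followed at 0.23 (SE 0.13).

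Genes that growth factors induce through ERK were described next, and 0 of them passed. Of 27 immediate early genes of the AP-1 and EGR families, 22 were higher and 5 lower (median 0.09), but the mean levels of the list overlapped, at -0.001, 0.05 and 0.12 with GDNF plus anti-NCAM1 and -0.03, 0.05 and -0.02 with anti-NCAM1. The median was 0.03 without GDNF plus anti-NCAM1 replicate 3 and 0.04 with GC and length trends taken out. Nr4a1, an immediate early nuclear receptor, stood at 10.5, 12.8 and 18.7 normalised CPM with GDNF plus anti-NCAM1 and 9.77, 12.7 and 8.28 with anti-NCAM1. The excess of Nr4a1 lay mainly in GDNF plus anti-NCAM1 replicate 3, and the groups overlapped (log2 fold change 0.44, SE 0.24). Klf4, a growth-arrest and pluripotency factor in the same list, stood at 68.1, 69.6 and 75.3 with GDNF plus anti-NCAM1 and 64.2, 62.6 and 65.6 with anti-NCAM1, without overlap (0.15, SE 0.08). Jun, a subunit of AP-1, differed by 0.07 (SE 0.09).

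Of 21 genes of ERK feedback, which ERK induces and most of which damp it, 14 were higher and 7 lower (median 0.04, and 0.12 without anti-NCAM1 replicate 2). Etv5, an ERK-responsive ETS factor that GDNF is known to induce through RET in kidney bud and germline stem cells, stood at 90.0, 93.4 and 89.5 normalised CPM with GDNF plus anti-NCAM1. With anti-NCAM1 it stood at 82.2, 82.0 and 77.0, below each of those libraries (log2 fold change 0.18, SE 0.07, edgeR adjusted p = 0.999). Dusp5, a nuclear ERK phosphatase, also had groups without overlap, at 28.8, 29.7 and 34.1 with GDNF plus anti-NCAM1 and 22.3, 27.9 and 27.9 with anti-NCAM1 (0.25, SE 0.12). Dusp6, the cytoplasmic ERK phosphatase, had close levels, at 84.7, 86.2 and 79.8 with GDNF plus anti-NCAM1 and 85.7, 85.0 and 80.1 with anti-NCAM1 (-0.0007, SE 0.08). Spry4 and Spry2, Sprouty inhibitors of receptor kinase signalling, stood at 0.04 and 0.07. In the list of 28 PI3K, AKT and mTOR genes 12 were higher and 16 lower, with a median of -0.03.

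The 8 genes with the smallest unadjusted p in each direction, among those whose groups did not overlap, are given as the top of a ranking in which no gene passed. The ranking left out Gm, Rik and LOC symbols, accessions and gene IDs. Those higher with GDNF were Crocc, Sipa1l3, Krt16, Amn1, Smim4, Ppp4r1l-ps, Smox and Alkbh6. Crocc, which encodes rootletin of the ciliary rootlet, stood at 37.3, 37.1 and 37.5 normalised CPM with GDNF plus anti-NCAM1 and at 23.4, 29.4 and 23.6 with anti-NCAM1. Sipa1l3, a GTPase-activating protein of the SIPA1 family needed for lens and epithelial shape, stood at 90.7, 91.0 and 91.2 with GDNF plus anti-NCAM1 and at 68.5, 76.9 and 66.9 with anti-NCAM1. For both genes the 3 GDNF plus anti-NCAM1 libraries were almost equal, and of the anti-NCAM1 libraries replicate 2 lay nearest to them. The log2 fold changes were 0.55 (SE 0.12) and 0.36 (SE 0.09).

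Both genes were also at the level of the GDNF plus anti-NCAM1 cultures in control. Crocc averaged 37.3 with GDNF plus anti-NCAM1, 25.5 with anti-NCAM1, 28.3 with GDNF and 34.9 in control. Sipa1l3 averaged 91.0 with GDNF plus anti-NCAM1, 70.8 with anti-NCAM1, 81.9 with GDNF and 91.1 in control. The anti-NCAM1 libraries, and less so those with GDNF alone, were the lower ones. In the fit of the 6 compared libraries alone both genes passed (edgeR adjusted p = 0.0186 each).

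In the fit of 12 libraries Crocc and Sipa1l3 had the smallest p of the 16 genes named by rank. Their promoters are shown as the sequence context of these genes and were searched for sites of the factors at the end of the ERK and cAMP routes. They are RefSeq windows of 250 bases before to 50 after a transcript start in GRCm38.p6, read 5′ to 3′ on the gene's strand. Crocc lies at chr4:141060496-141060795 on the minus strand (68.7% GC, 1 of 2 windows listed for the gene) and Sipa1l3 at chr7:29505411-29505710 on the minus strand (55.0% GC). Capitals mark the match to the EGR motif.
Crocc: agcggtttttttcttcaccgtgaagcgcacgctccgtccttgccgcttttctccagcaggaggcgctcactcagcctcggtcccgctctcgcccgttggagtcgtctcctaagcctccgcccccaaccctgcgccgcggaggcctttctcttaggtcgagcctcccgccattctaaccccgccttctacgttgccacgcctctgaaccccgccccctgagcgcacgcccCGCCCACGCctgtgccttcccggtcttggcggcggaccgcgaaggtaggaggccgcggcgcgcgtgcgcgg
Sipa1l3: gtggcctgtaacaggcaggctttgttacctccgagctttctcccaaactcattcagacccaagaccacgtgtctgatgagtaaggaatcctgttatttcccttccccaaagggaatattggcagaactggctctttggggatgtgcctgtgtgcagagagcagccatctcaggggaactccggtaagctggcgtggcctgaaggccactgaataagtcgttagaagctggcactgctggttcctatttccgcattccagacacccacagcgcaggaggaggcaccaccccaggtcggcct
The motifs searched on both strands were AP-1 (TGANTCA), CRE (TGACGTCA) and EGR (GCGNGGGCG), which 7.79, 1.80 and 5.6% of the 32544 windows in the table hold. Crocc has 1 EGR match, on the opposite strand, and Sipa1l3 has no match in this window. Of the 16 genes named by rank, 13 had a window, and 1 of them held an AP-1, 2 a CRE and 2 an EGR match, where a gene with several windows was searched in all of them. These matches describe letters and no binding.

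Krt16, a keratin of stressed and proliferating epithelium, had the largest log2 fold change of the 16, 1.85 (SE 0.46), at a low level. It had 12, 9 and 18 counts (1.80, 1.57 and 2.78 normalised CPM) with GDNF plus anti-NCAM1 and 6, 3 and 2 counts (0.930, 0.424 and 0.325) with anti-NCAM1. The 3 GDNF libraries were the higher ones, and each rests on few counts. Amn1, the counterpart of a yeast regulator of mitotic exit, stood at 19.0, 17.5 and 14.5 with GDNF plus anti-NCAM1 and at 13.5, 9.47 and 9.91 with anti-NCAM1 (log2 fold change 0.64, SE 0.16). Smox, spermine oxidase of polyamine breakdown, stood at 32.8, 29.4 and 34.4 with GDNF plus anti-NCAM1 and 20.8, 26.3 and 23.4 with anti-NCAM1 (0.46, SE 0.14). Amn1 and Smox averaged 13.3 and 28.1 in control, between their averages with GDNF plus anti-NCAM1 and with anti-NCAM1. Smim4 had a log2 fold change of 1.29 (SE 0.38), also at a low level and resting on few counts. It stood at 1.80, 2.27 and 2.01 with GDNF plus anti-NCAM1 and at 0.620, 0.707 and 1.14 with anti-NCAM1. Alkbh6 and the pseudogene Ppp4r1l-ps had log2 fold changes of 0.66 and 0.50, and a pseudogene can share reads with its parent gene.

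Those lower with GDNF were Sfmbt1, Ppp1r3e, Mmd, Retreg1, Rbms2, Uhrf2, Chmp2b and Zfp566. Sfmbt1, a Polycomb-related reader of histone methylation, stood at 19.9, 20.8 and 22.7 normalised CPM with GDNF plus anti-NCAM1 and at 30.5, 27.0 and 28.9 with anti-NCAM1 (log2 fold change -0.44, SE 0.11). Ppp1r3e, a glycogen-targeting subunit of protein phosphatase 1, stood at 7.05, 7.52 and 7.26 with GDNF plus anti-NCAM1 and at 9.77, 12.0 and 11.04 with anti-NCAM1 (-0.59, SE 0.17). Retreg1, a receptor for autophagy of the endoplasmic reticulum, stood at 14.6, 17.8 and 15.3 with GDNF plus anti-NCAM1 and at 22.2, 21.6 and 20.1 with anti-NCAM1 (-0.43, SE 0.13). Unlike Crocc and Sipa1l3, Retreg1 had all 3 anti-NCAM1 replicates close together. Uhrf2, a reader of 5-hydroxymethylcytosine, and Chmp2b, a subunit of the ESCRT-III complex, had log2 fold changes of -0.24 (SE 0.08) and -0.28 (SE 0.09), and Mmd, Rbms2 and Zfp566 of -0.52, -0.25 and -0.52. Every one of the 16 had an edgeR adjusted p of 0.999.

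**Figure D2:**
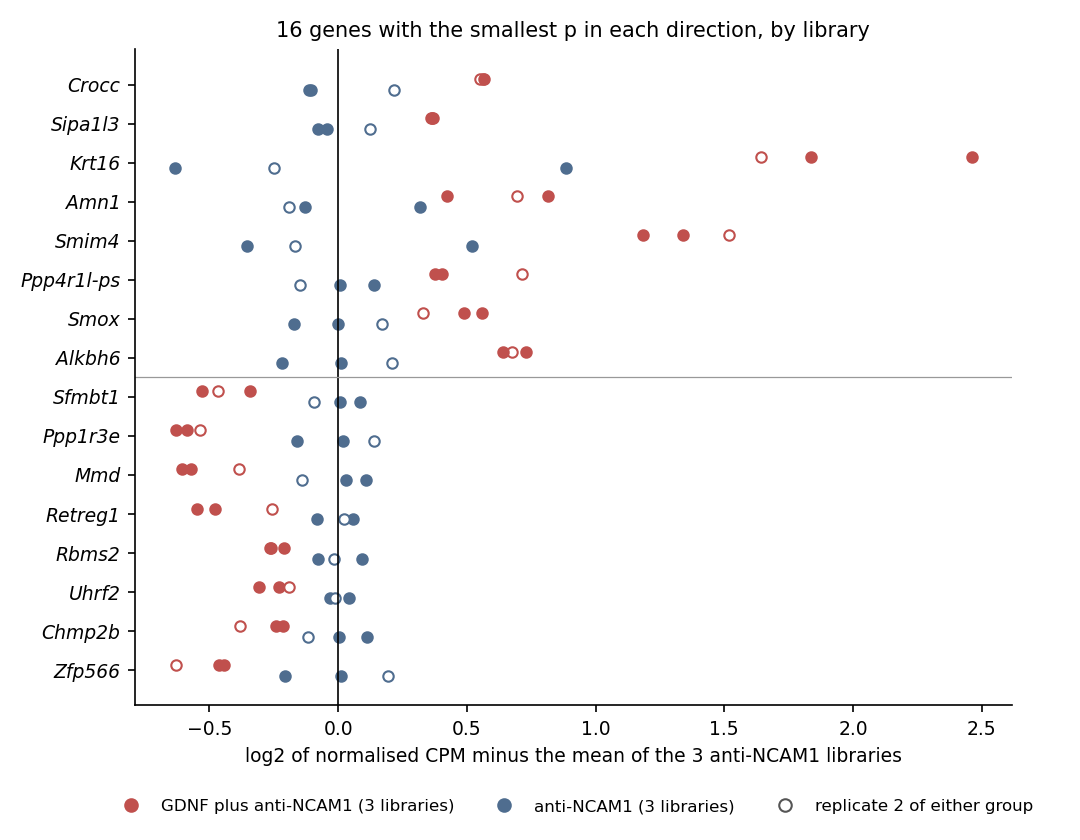
The 16 genes with the smallest unadjusted p in each direction are shown by library as log2 of normalised CPM minus the mean of the 3 anti-NCAM1 libraries, with GDNF plus anti-NCAM1 in red above anti-NCAM1 in blue and replicate 2 of each group as an open circle. The groups do not overlap because the genes were ranked among those that do not, and for Crocc and Sipa1l3 the open blue circle lies nearest to the red ones.

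Genes of nutrient supply were described because the cells were short of glucose. Slc2a1, the glucose transporter GLUT1, stood at 177, 168 and 178 normalised CPM with GDNF plus anti-NCAM1 and at 150, 164 and 154 with anti-NCAM1. The groups did not overlap, the log2 fold change was 0.16 (SE 0.09, 95% interval -0.04 to 0.36), and the control average was 173. Pdk1, a kinase that inhibits pyruvate dehydrogenase, stood at 183, 186 and 182 with GDNF plus anti-NCAM1 and at 193, 189 and 203 with anti-NCAM1 (-0.09, SE 0.06). Over the 27 tested genes of glucose uptake and glycolysis 15 were higher and 12 lower, with a median of 0.02, and the interval lay within 1.5-fold for 24 of them. Tricarboxylic acid cycle genes split 14 to 15 (median -0.01).

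Of 18 amino acid transporters 15 were higher (median 0.08), and of 16 serine and one-carbon enzymes 14 were higher (median 0.04), with 0 passing in either list. The mean level of the transporters was 0.09, 0.07 and 0.07 with GDNF plus anti-NCAM1 and -0.0001, 0.03 and -0.03 with anti-NCAM1, without overlap. Slc1a4, a neutral amino acid carrier, stood at 105, 103 and 107 normalised CPM with GDNF plus anti-NCAM1 and 91.9, 93.7 and 89.2 with anti-NCAM1 (log2 fold change 0.20, SE 0.09). All 3 anti-NCAM1 libraries of Slc1a4, replicate 2 among them, lay below the GDNF plus anti-NCAM1 libraries.

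Atf4, the factor that drives many of these genes under amino acid stress, had close levels, at 562, 547 and 556 with GDNF plus anti-NCAM1 and 548, 543 and 553 with anti-NCAM1 (0.02, SE 0.11). The 27 genes of the integrated stress response had 17 higher and 10 lower (median 0.02). Chac1, a glutathione-degrading target of the response, had 15.3, 17.0 and 14.7 with GDNF plus anti-NCAM1 and 10.9, 13.0 and 12.3 with anti-NCAM1 (0.37, SE 0.14), without overlap. Its sensor kinase for uncharged tRNA, Eif2ak4, was on the other side, at 38.2, 42.3 and 43.7 with GDNF plus anti-NCAM1 and 49.8, 44.5 and 53.3 with anti-NCAM1 (-0.25, SE 0.11). Fatty acid synthesis genes had 12 of 17 higher (median 0.08), with Srebf1, the lipogenic transcription factor, at 0.26 (SE 0.13) and Fasn, fatty acid synthase, at 0.19 (SE 0.12). Cholesterol synthesis genes had 16 of 25 higher (median 0.03).

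Of 46 large ribosomal subunit proteins 37 were lower with GDNF (median -0.08), 14 of them (30.4%) with groups that did not overlap, beside 5.76% of all genes. Of 33 small subunit proteins 25 were lower (median -0.07), 9 of them (27.3%) without overlap, and 0 genes of either list passed. Without anti-NCAM1 replicate 3 the medians were -0.04 for the large and -0.03 for the small subunit. Rpl30 stood at 693, 704 and 716 normalised CPM with GDNF plus anti-NCAM1 and at 802, 752 and 867 with anti-NCAM1 (log2 fold change -0.20, SE 0.08). Rps27a, which encodes a ubiquitin fused to a ribosomal protein, stood at 1249, 1235 and 1224 with GDNF plus anti-NCAM1 and at 1372, 1294 and 1475 with anti-NCAM1 (-0.16, SE 0.08). In both genes anti-NCAM1 replicate 2 was again the closest to the GDNF plus anti-NCAM1 libraries. The members move together and are not independent, many have near-identical copies whose reads the counting may have split, and the control level of Rpl30 was 694, as with both agents.

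The 12 tested mitochondrially encoded genes were lower in 10 and higher in 2 (median -0.11), and the levels overlapped, at -0.09, -0.07 and -0.15 with GDNF plus anti-NCAM1 and 0.05, -0.16 and 0.11 with anti-NCAM1. Here anti-NCAM1 replicate 2 was the lowest library of the 6. Without it the median was -0.21, and without anti-NCAM1 replicate 3 it was -0.03. mt-Cytb, which encodes cytochrome b, stood at 2429, 2463 and 2441 with GDNF plus anti-NCAM1 and at 2766, 2262 and 2982 with anti-NCAM1. Of 75 nuclear genes of the respiratory chain 29 were higher and 46 lower (median -0.03), and of 27 cytosolic chaperones 6 and 21 (median -0.03), with the HSP70 co-chaperone Dnajb1 at -0.28 (SE 0.11).

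Genes of cell division were close between the groups. Of 36 genes of mitosis and the spindle 15 were higher and 21 lower (median -0.01), and all 36 had a 95% interval within 1.5-fold. The same held for all 40 genes of DNA replication (18 higher and 22 lower, median -0.02). Top2a, topoisomerase II of dividing cells, stood at 698, 677 and 695 normalised CPM with GDNF plus anti-NCAM1 and 778, 680 and 744 with anti-NCAM1 (log2 fold change -0.09, SE 0.08). Its levels in anti-NCAM1 replicate 2 and in the 3 GDNF plus anti-NCAM1 libraries ran into each other.

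Guidance and adhesion genes are the ones NCAM1 works beside in neurons. Of 24 tested axon guidance genes 22 were higher with GDNF (median 0.11, the highest of the 36 lists with at least 5 tested members), and 0 passed. Only 1 of the 24 (4.17%) was higher with groups that did not overlap, beside 5.52% of all genes. The mean level of the list was 0.16, 0.09 and 0.08 with GDNF plus anti-NCAM1 and -0.01, 0.07 and -0.06 with anti-NCAM1. Anti-NCAM1 replicate 2 thus nearly met the lowest GDNF plus anti-NCAM1 library. Plxna1, a receptor of semaphorins, stood at 178, 182 and 175 normalised CPM with GDNF plus anti-NCAM1 and at 157, 172 and 146 with anti-NCAM1 (log2 fold change 0.17, SE 0.09). It averaged 192 in control and 161 with GDNF alone. Once each library's dependence on GC content and transcript length was taken out, the median of the list was 0.06. Integrin and focal adhesion genes were higher in 19 of 30 (median 0.04, and -0.002 after that step), matrix genes in 15 of 25 (median 0.02, and -0.002 after that step) and antigen presentation genes in 11 of 19 (median 0.03, and -0.006 after that step). Without anti-NCAM1 replicate 3 the antigen presentation median was -0.02.

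The other lists lay close to 0, with 0 genes passing in each. Of 31 G1 cyclins, CDK inhibitors and p53 targets 17 were higher and 14 lower (median 0.05), and Cdkn2c, the CDK4 and CDK6 inhibitor p18, stood at 23.5, 20.8 and 18.1 normalised CPM with GDNF plus anti-NCAM1 and 28.5, 24.0 and 25.2 with anti-NCAM1 (log2 fold change -0.31, SE 0.13). Lysosome and autophagy genes split 16 to 22 (median -0.01), with the autophagy kinase Ulk1 at 0.18 (SE 0.09). NF-kB feedback genes and chemokines split 12 to 8 (median 0.06), interferon-stimulated genes 9 to 8 (0.02), BCL2 family genes 9 to 6 (0.03) and circadian clock genes 10 to 6 (0.05). With GC and length trends taken out the NF-kB median was 0.005. Without anti-NCAM1 replicate 3 the interferon median was -0.09 and the circadian median -0.005. The interval lay within 1.5-fold for only 7 of the 17 interferon-stimulated genes, so that list was measured less closely, and Rsad2, the antiviral enzyme viperin, stood at 2.85, 2.62 and 3.09 with GDNF plus anti-NCAM1 and at 1.55, 0.990 and 2.44 with anti-NCAM1 (0.80, SE 0.37).

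Endoplasmic reticulum chaperones split 13 to 12, NRF2 antioxidant genes 10 to 16, hypoxia-inducible genes 10 to 11, ribosome biogenesis genes 17 to 18 and mesenchymal factors 9 to 10, with medians of -0.01 to 0.0001. Pentose phosphate and hexosamine genes split 7 to 6 (median 0.003), and Pgm3, a phosphomutase of hexosamine synthesis, stood at 8.998, 10.7 and 9.73 with GDNF plus anti-NCAM1 and at 12.1, 14.3 and 12.0 with anti-NCAM1 (-0.39, SE 0.15). Its groups did not overlap, and replicate 2 of anti-NCAM1 was the farthest from the GDNF plus anti-NCAM1 libraries.

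Over the 36 lists, medians ran from -0.11 to 0.11, 20 above 0 and 16 below. Of the 36 medians, 19 kept their sign in all 35 alternatives of scaling, filtering, model, trend removal and left-out library, and 17 turned in at least 1, glycolysis, the tricarboxylic acid cycle, mitosis, matrix and antigen presentation among them. Lists share members, so they are not separate tests. For 7 lists the mean levels of the 2 groups did not overlap. These were the signalling intermediates, the integrated stress response, the amino acid transporters, the serine and one-carbon enzymes, the G1 and p53 genes, the large ribosomal subunit and axon guidance. How many lists would separate in this way without any effect of GDNF was not tested, and lists share library-wide trends such as the GC slope. The largest difference between the group means among the 7 was 0.11 on the log2 scale, for axon guidance.

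**Figure D3:**
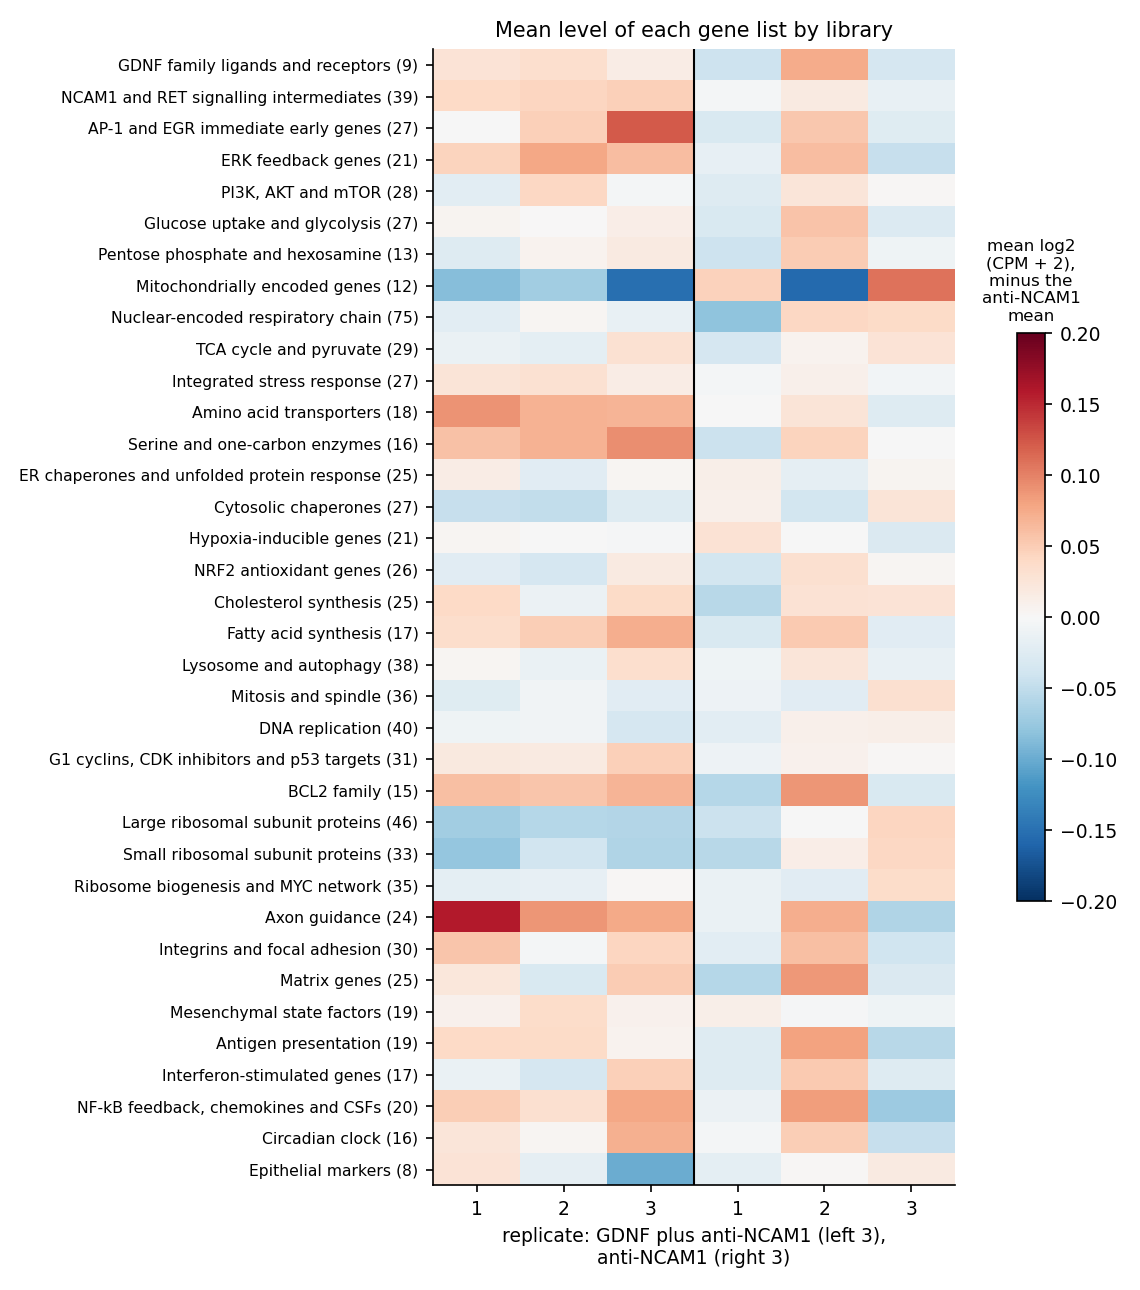
Each cell is the mean over a list's tested members (number in brackets) of log2(CPM + 2) minus the mean of the 3 anti-NCAM1 libraries, with the 3 GDNF plus anti-NCAM1 libraries left and the 3 anti-NCAM1 libraries right. For mitochondrially encoded genes the GDNF plus anti-NCAM1 libraries stand at -0.09, -0.07 and -0.15, and of the anti-NCAM1 libraries replicate 2 stands at -0.16 and replicates 1 and 3 at 0.05 and 0.11.

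The part of markers of other cell types in the results was not tested, and their levels are given here. Of 16 leukocyte markers 9, Ptprc and Adgre1 among them, had 0 counts in all 6 libraries, and the summed level of the list was 12.1 to 13.0 CPM with GDNF plus anti-NCAM1 and 11.1 to 12.7 with anti-NCAM1. The endothelial list summed to 78.0 to 79.9 CPM with GDNF plus anti-NCAM1 and 58.9 to 82.3 with anti-NCAM1, with Tie1, Emcn and Cldn5 at 0. In that list Pecam1, the adhesion molecule CD31, had 9, 5 and 10 counts with GDNF plus anti-NCAM1 and 15, 17 and 14 with anti-NCAM1. Its groups did not overlap (log2 fold change -0.87, SE 0.33, unadjusted p from edgeR = 0.0161, adjusted p = 0.999). Eng, the other of the 2 tested endothelial markers, went the other way (log2 fold change 0.24), and its groups overlapped. The fibroblast list summed to 736 to 762 CPM with GDNF plus anti-NCAM1 and 671 to 800 with anti-NCAM1, and the basal list to 829 to 873 with GDNF plus anti-NCAM1 and 802 to 889 with anti-NCAM1. The neuron and glia list summed to 51.0 to 56.1 CPM with GDNF plus anti-NCAM1 and 47.5 to 61.4 with anti-NCAM1. Epithelial markers summed to 929 to 960 CPM with GDNF plus anti-NCAM1 and 914 to 998 with anti-NCAM1, yet 15 of 23 averaged under 3 counts per library, and Krt7, Krt19 and Cldn3 were among 9 at 0. Epcam, an epithelial adhesion molecule, stood at 14.6, 12.1 and 13.9 normalised CPM with GDNF plus anti-NCAM1 and at 18.1, 17.1 and 15.8 with anti-NCAM1 (log2 fold change -0.33, SE 0.13), and did not pass. Epcam and the junction protein gene Tjp1 (-0.12, SE 0.10) were the 2 of 8 tested epithelial markers whose groups did not overlap. Both were lower with GDNF plus anti-NCAM1, as were 5.76% of all genes without overlap. The 8 markers split into 4 higher and 4 lower (median -0.04), from Ovol1 at -0.49 to Elf3 at 0.52, so the list had no common direction.

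Whether the antibody changed the effect of GDNF is a question about the difference of 2 differences, GDNF plus anti-NCAM1 minus anti-NCAM1 less GDNF minus control. No gene passed for it in edgeR (0 of 11332, 0%, smallest adjusted p = 0.240), with 1900 at an unadjusted p under 0.05. DESeq2 and limma-voom passed 0 as well (1650 and 1960 unadjusted). Across genes, the log2 fold changes of GDNF in the 2 arms, which share no library, had a Pearson r of -0.21 and a Spearman rho of -0.33. In both arms the fold changes follow GC content, by 0.08 per 10 GC points with anti-NCAM1 and by -0.25 with IgG, and once GC and length trends were taken out r was -0.06 and rho -0.13. Genes are not independent, so no p is given.

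Of the 36 lists, 27 had medians of opposite sign in the 2 arms. Axon guidance stood at 0.11 with anti-NCAM1 and -0.24 with IgG, and the mitochondrially encoded genes at -0.11 with anti-NCAM1 and 0.74 with IgG. Mitosis stood at -0.01 with anti-NCAM1 and 0.20 with IgG, amino acid transporters at 0.08 with anti-NCAM1 and -0.14 with IgG, and the large ribosomal subunit at -0.08 with anti-NCAM1 and 0.07 with IgG. In GDNF replicate 3 mitochondrially encoded transcripts were 10.2% of the counts and the GC slope was -0.36, and the level of that list was 0.86, against -0.12 and 0.18 in the other GDNF libraries and -0.13, -0.20 and -0.21 in control. Without GDNF replicate 3, 14 genes passed for the difference of the 2 effects, and without GDNF replicate 1 there were 1887. The count thus depended on which GDNF library was left out.

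**Figure D4:**
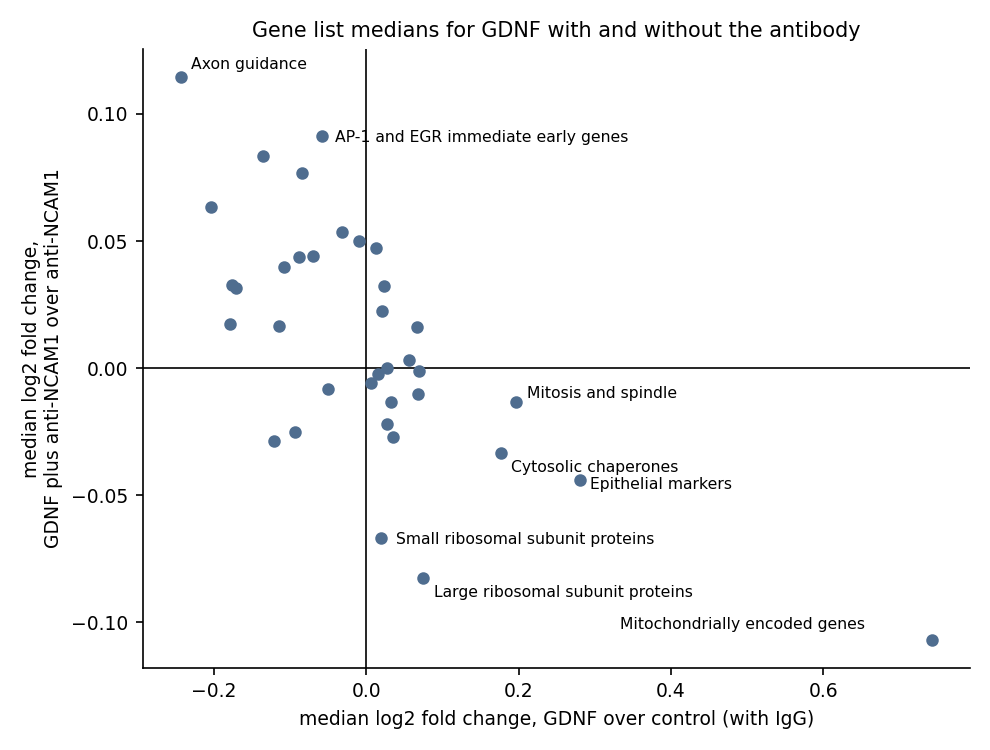
Each point is 1 of the 36 gene lists, with its median log2 fold change for GDNF over control with IgG (horizontal) against that for GDNF plus anti-NCAM1 over anti-NCAM1 (vertical). The medians with anti-NCAM1 lie between -0.11 and 0.11, and those of 27 lists have opposite signs in the 2 arms, with mitochondrially encoded genes farthest out at 0.74 with IgG.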

How the data were processed

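RNA was extracted with a Quick-RNA kit and sequenced with standard Illumina libraries, per the labels' protocols. The authors deposited raw counts, whole numbers per gene, for 55414 gene IDs in 12 libraries of 5616398 to 8093754 counts. Tools named in the submitters' processing notes are kallisto 0.46.2, FastQC and MultiQC, and the builds named are GRCm39 and mm10, without roles. How reads shared between genes or strands were counted is not given in the sources used here. A symbol matched 52081 IDs, and the 3333 others held 6.55% of the counts.

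Genes were kept by filterByExpr (minimum count 10, minimum total 15), scaled by TMM and fitted in 1 model of 4 groups by edgeR 4.0.16 (R 4.3.3) with the quasi-likelihood F test, 2-sided. P-values were adjusted by Benjamini-Hochberg over 11332 genes and called at 0.05. limma 3.58.1 and DESeq2 1.42.0 were alternatives. Normalised CPM use TMM library sizes. Standard errors in edgeR fits were derived as the absolute log2 fold change over the square root of the F statistic. Intervals are edgeR's log2 fold change with this standard error times a t quantile. GC content and length came from GENCODE M21 for 11313 genes, with lowess trends (span 0.3). The code was tested on simulated data.

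The comparison and the 41 gene lists, 36 with at least 5 tested members, were chosen with earlier results of these data known. Named by rule were up to 10 passing genes per direction, or, as none passed, the 8 with the smallest p per direction among groups that did not overlap. Gm, Rik and LOC symbols, accessions and gene IDs were left out of these 8. The rule also takes Ncam1, Gfra1, Ret, Gdnf, Fyn and the GDNF family, and the 2 members with the smallest p of each list, of which some are not reported here. Other genes were picked for their roles after their values were seen. No library was left out.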

Additional observations from a re-analysis of the deposited data

How the results depend on the processing

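The count of 0 genes held in 24 of 35 alternatives, among them limma-voom, DESeq2, upper-quartile or DESeq2 scaling, filters of 1 and 5 CPM in 3 libraries, removal of GC and length trends, and each of the 12 libraries left out of the full fit (0 to 0). It was 7 with sample quality weights and 4 with no filter. The fit of the 6 compared libraries alone gave 5. Further fits of these 6 libraries were added after seeing the data. They gave 5 with limma-voom, 0 with DESeq2 and 20 with the trend removed. Among these added fits, leaving out GDNF plus anti-NCAM1 replicates 1, 2 and 3 in turn gave 0, 2 and 1. Leaving out anti-NCAM1 replicates 1, 2 and 3 in turn gave 1, 706 and 1. The replicate block gave 0 genes in the full fit (272 at an unadjusted p under 0.05) and 5 in the 6 libraries. The replicate numbers did not pair the libraries, since deviations of same-numbered libraries correlated at 0.0086, -0.035 and 0.010. The block changed no other call. For the difference between the 2 GDNF effects the count was 2425 with quality weights, 403 with no filter, 0 to 1887 when single libraries were left out, and 0 with the replicate block. The causes were not tested. Of 96 named genes, 91 kept their direction throughout. Most of the 96 were picked for a small p, so this count follows largely from the choice and is no separate support. The 5 others, all picked without regard to p, lay near 0. Artn turned to 0.0378 with quality weights and ran from -0.231 to 0.157 without single libraries, and in the 6 libraries alone was 0.150 and 0.163 without replicate 2 of either group. Ncam1 ran from -0.131 to 0.0108, and in the 6 libraries alone was 0.00928 without GDNF plus anti-NCAM1 replicate 1 and 0.00464 without anti-NCAM1 replicate 3. Sdc1 was -0.0121 with the trend removed, -0.0135 with the block too, and -0.0108 in the 6 libraries. Met was 0.00241, 0.00307 and 0.000674 in the same settings, ran from -0.0859 to 0.0265, and in the 6 libraries alone was 0.0244 and 0.0218 without replicate 1 of either group. Fyn ran from -0.0411 to 0.0922, and in the 6 libraries alone was -0.00952 and -0.0350 without GDNF plus anti-NCAM1 replicates 1 and 3 and -0.00277 and -0.00289 without anti-NCAM1 replicates 1 and 2. With 3 cultures a group, genes of few counts had wide intervals, and Gfra1 and Ret could not be compared.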

Other observations

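Besides Crocc and Sipa1l3, 3 genes passed when the 6 compared libraries were fitted alone, and they are named because of their values. Bc1, a short non-coding RNA of dendrites whose sequence is related to a repeat family, had 698, 938 and 890 normalised CPM with GDNF plus anti-NCAM1 and 1138, 948 and 1256 with anti-NCAM1 (log2 fold change -0.40, edgeR adjusted p = 0.00164). mt-Rnr1, the small mitochondrial ribosomal RNA, had 514, 563 and 457 with GDNF plus anti-NCAM1 and 850, 494 and 852 with anti-NCAM1 (-0.52, adjusted p = 0.00164), with anti-NCAM1 replicate 2 among the GDNF plus anti-NCAM1 libraries. mt-Nd6, the 1 protein gene on the light strand of the mitochondrial genome, stood at 364, 369 and 360 with GDNF plus anti-NCAM1 and at 291, 340 and 267 with anti-NCAM1 (0.28, adjusted p = 0.0327). Strand use in counting is not stated, so reads from the opposite strand cannot be told apart. In the fit of all 12 libraries their adjusted p was 0.999.

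Lars2, which encodes the mitochondrial leucyl-tRNA synthetase, took 0.480, 0.473 and 0.376% of the counts with GDNF plus anti-NCAM1 and 0.638, 0.236 and 0.727% with anti-NCAM1, in the same order of libraries as the most abundant feature, except that GDNF plus anti-NCAM1 replicates 1 and 2 were in the opposite order.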
